A study of Mus musculus with 6 samples.

Results

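The 10 genes described here restrain the cell cycle or control that restraint: Cdkn1a, Cdkn1b and Cdkn1c of the Cip/Kip family of cyclin-dependent kinase inhibitors, Cdkn2a, Cdkn2b, Cdkn2c and Cdkn2d of the INK4 family, Trp53 and Mdm2, and Rb1. They were taken by gene symbol, and all 10 were found among the 23361 rows of the table. The RNA was that of taste cells isolated with enzymes from the rear (circumvallate, CV) and lateral (foliate, Fol) taste papillae of the tongue in C57BL/6 mice, for which the labels name no transgene or drug. Each library was a pool, of 4 mice in the 3 libraries aged 2 months and of 3 mice in the 3 libraries aged 6 months; one passage of the series' design text says 3 months instead of 2. The table holds 1 FPKM value for each gene and age, an estimate by the authors' software over all 3 libraries that scales fragment counts by transcript length and library size. Neither single libraries nor the p-values that the authors deposited from their own comparison were used here, so no SD is given, no test was run, and no difference below was checked against the spread between pools.

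The cell cycle is driven by cyclins bound to cyclin-dependent kinases, which phosphorylate the retinoblastoma protein encoded by Rb1 and so release E2F transcription factors. INK4 proteins bind the kinases Cdk4 and Cdk6, whereas Cip/Kip proteins bind a broader range of cyclin-kinase complexes. The p53 protein, encoded by Trp53, is stabilized by DNA damage and other stress and activates Cdkn1a, whose product is p21. Mdm2, itself a p53 target, is the ubiquitin ligase that marks p53 for breakdown. Taste buds are renewed throughout life from basal epithelial progenitors that leave the cell cycle, and Cdkn2a and Cdkn1a are widely used as markers of senescence, a lasting arrest that becomes more frequent with age.

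Cdkn2a and Cdkn1a each have 2 start sites in the RefSeq annotation of the mouse genome (GRCm38) but 1 value per age in the table, so the use of the separate starts cannot be read from these data. On the minus strand of chromosome 4, Cdkn2a extends from 89274473 to 89294619. Transcripts from its outer start encode the Arf protein and those from its inner start the p16 protein, each with 3 exons, and the reading frames differ. Cdkn1a extends from 29090979 to 29100722 on the plus strand of chromosome 17, and a transcript of 3 exons is annotated from each of its starts. The 250 bases before each of these starts (GRCm38.p6, from RefSeq) are shown because they precede the lowest and the highest of the 10 genes, a choice made after the levels had been seen. In all but the outer region of Cdkn1a, the capitals mark the GC box, spelled GGGCGG on one strand and CCGCCC on the other, to which Sp1 factors bind, and the inner region of Cdkn2a has none. In the outer region of Cdkn1a, they mark a near match, with 1 mismatch, to the p53 response element of 20 bases.

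Cdkn2a, outer start (Arf), chr4:89294620-89294869, minus strand: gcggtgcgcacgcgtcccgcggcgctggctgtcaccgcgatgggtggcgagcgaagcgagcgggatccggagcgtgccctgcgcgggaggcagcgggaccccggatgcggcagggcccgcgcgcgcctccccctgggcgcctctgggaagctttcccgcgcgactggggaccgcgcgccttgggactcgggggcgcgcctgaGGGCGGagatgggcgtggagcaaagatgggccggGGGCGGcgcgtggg
Cdkn2a, inner start (p16), chr4:89282193-89282442, minus strand: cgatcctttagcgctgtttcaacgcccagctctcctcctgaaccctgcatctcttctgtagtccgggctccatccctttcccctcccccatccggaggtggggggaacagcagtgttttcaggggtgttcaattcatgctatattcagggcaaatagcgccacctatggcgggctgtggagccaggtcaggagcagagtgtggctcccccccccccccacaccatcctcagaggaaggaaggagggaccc
Cdkn1a, outer start, chr17:29090729-29090978, plus strand: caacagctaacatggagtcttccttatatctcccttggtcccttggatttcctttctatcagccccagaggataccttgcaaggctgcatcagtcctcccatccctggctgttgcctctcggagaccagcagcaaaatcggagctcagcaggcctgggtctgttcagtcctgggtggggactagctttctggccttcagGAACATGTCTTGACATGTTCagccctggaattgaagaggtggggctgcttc
Cdkn1a, inner start, chr17:29093519-29093768, plus strand: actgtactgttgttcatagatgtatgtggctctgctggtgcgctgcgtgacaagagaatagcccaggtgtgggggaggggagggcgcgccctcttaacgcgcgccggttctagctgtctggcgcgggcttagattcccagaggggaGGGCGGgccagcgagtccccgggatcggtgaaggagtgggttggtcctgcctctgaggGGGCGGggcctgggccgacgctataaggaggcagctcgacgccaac

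The outer region of Cdkn2a had a GC content of 78.4% and 2 GC boxes, and the inner region 60% and 0. The outer region of Cdkn1a had 54.0% and 0 GC boxes, and the inner region 64.8% and 2. In all, 4 motif definitions were searched in the 11 promoter regions of the 8 genes matched in the RefSeq promoter table, which did not include Cdkn1c and Rb1. At least 1 GC box was present in 6 of the 11 regions and in 32.7% of the 32851 regions of the same length in the table. The median GC content of those 32851 regions was 52.4%, below that of each of the printed regions. The comparison was not matched for GC content. The spelling of the TATA box, TATAAA on one strand and TTTATA on the other, was searched at any position. It was matched in 1 of the 11, that of Trp53, and in 12.4% of all regions. The match in Trp53 was TTTATA at the end of the region farthest from the start, so it does not locate a TATA box. Near spellings, such as TATAAG close to the inner start of Cdkn1a, were not counted. The full p53 response element, searched as 2 adjoining half-sites of 10 bases with no spacer, was present in 0 of the 11 regions and in 3 of the 32851. After this search had found none, a near match was noticed by eye in the outer region of Cdkn1a, and only then was the search repeated with 1 mismatch allowed outside the core of each half-site. That looser form, fitted to a site already seen, matched 1 of the 11 regions, beginning 51 bases before the outer start of Cdkn1a, and 15 of the 32851 (0.0457%), so the match is no independent result. These matches are descriptions of the sequence, and no binding was measured.

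Among the Cip/Kip genes, Cdkn1a was by far the most abundant. Its value was 217.7 FPKM at 2 months against 251.2 FPKM at 6, and 96.8% and 97.3% of expressed genes had a lower value at these ages. Here 12652 genes with 1 FPKM or more, averaged over both ages, are called expressed. Cdkn1b, which encodes p27, an inhibitor that accumulates in cells leaving the cycle, was at 23.5 FPKM at 2 months against 24.3 FPKM at 6. The level of Cdkn1a was thus 9.26 times that of Cdkn1b at 2 months and 10.3 times at 6 months. Cdkn1c, an imprinted gene on chromosome 7 that encodes p57, was much lower, at 4.01 FPKM in 2 month and 3.85 FPKM in 6 month taste cells. Cdkn1a alone made up 73.9% of the summed FPKM of the 7 inhibitor genes at 2 months and 76.3% at 6 months.

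The INK4 genes spanned a wide range of levels, from Cdkn2b at the top to Cdkn2a at the bottom at both ages. Cdkn2b, which encodes p15, an inhibitor known to be induced by transforming growth factor beta, had 26.0 FPKM at 2 months against 23.8 FPKM at 6. Cdkn2d, which encodes the INK4 protein p19, had 12.3 and 13.1 FPKM, and Cdkn2c, which encodes p18, had 10.9 and 11.9 FPKM at 2 and 6 months. Cdkn2a was the only one of the 10 genes below 1 FPKM, with 0.326 FPKM at 2 months against 0.883 FPKM at 6. Its neighbor Cdkn2b, separated from it by 11669 bases upstream of its outer start and on the same strand, was 79.7 times as high as Cdkn2a at 2 months and 27 times at 6 months. The summed level of the 4 INK4 genes was 49.5 FPKM at 2 months against 49.8 FPKM at 6, and that of the 3 Cip/Kip genes was 245.2 and 279.3 FPKM. Cdkn2b overlaps the gene Gm12610 in the RefSeq annotation, and because the use of strand in the counting is not given in the sources used here, reads of overlapping genes may have been shared.

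The transcription factor gene Trp53 had the second highest value of the group, 57.3 FPKM at 2 months against 51.9 FPKM at 6. Mdm2 had 20.3 FPKM at 2 months against 21.2 FPKM at 6, so that Trp53 was 2.82 and 2.45 times as high as its own negative regulator. The ratio of Cdkn1a to Trp53 was 3.80 at 2 months and 4.84 at 6 months. Rb1, the pocket protein gene through which the INK4 proteins act, was at 11.4 FPKM in 2 month and 11.97 FPKM in 6 month taste cells, close to the medians of the expressed genes, 11.8 and 11.7 FPKM. Rb1 spans 27 exons on chromosome 14 from 73192858 to 73325951 and overlaps Lpar6 and Mir687 in the RefSeq annotation.

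From high to low at 2 months, the order was Cdkn1a, Trp53, Cdkn2b, Cdkn1b, Mdm2, Cdkn2d, Rb1, Cdkn2c, Cdkn1c and Cdkn2a. At 6 months the order was the same except that Cdkn1b stood above Cdkn2b. FPKM is scaled by transcript length, so levels can be set side by side between genes, but without values of single libraries it is not known which neighbors in this order differ beyond their spread. The pairs Cdkn1b and Cdkn2b, and Rb1 and Cdkn2c, lay close together at both ages.

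**Figure D1:**
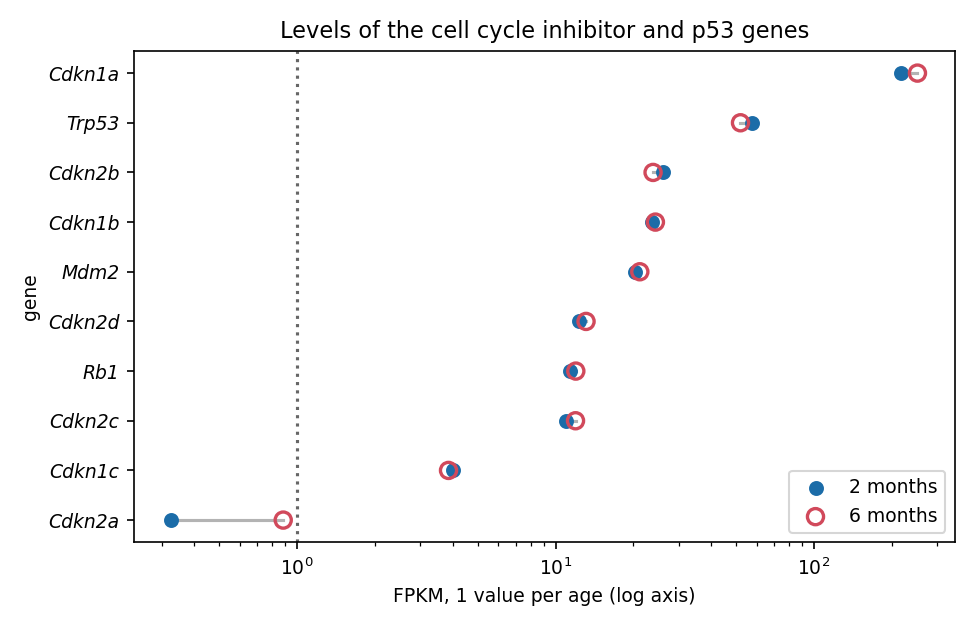
FPKM of each of the 10 genes on a log axis, with filled points for 2 months and open circles for 6 months, 1 value per age over 3 libraries and no error bars; the dotted line is at 1 FPKM. Cdkn2a is the only gene left of the line, and the ages overlap closely for most of the others, from 3.85 FPKM for Cdkn1c to 251.2 FPKM for Cdkn1a.

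The change with age was taken as the 6 month value of log2(FPKM + 1) less the 2 month value, a scale that understates the change of low genes. Of the 9 expressed genes of the group, 0 were past a 1.5-fold change in either direction. Of the 12652 expressed genes of the table, 350, or 2.77%, were past it. At that share, a count of 0 among only 9 genes does not set the group apart from other genes. Of all expressed genes, 1.05% were past it with a higher value at 6 months and 1.72% with a lower value. All 9 were within 1.2-fold on this scale, a limit set after their values had been seen, as were 89.2% of all expressed genes. No test of these differences was run here, so they were not set against the spread between pools.

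The 9 genes had log2 changes from -0.14 to 0.21 with a median of 0.06, beside a median of -0.01 and quartiles of -0.10 and 0.08 for all expressed genes. A higher value at 6 months was seen for 6 of the 9 and a lower value for 3, and 46.3% of all expressed genes were higher. The largest difference among these 9 was that of Cdkn1a, a log2 change of 0.21. A change at least as large in either direction was seen for 17.2% of all expressed genes. Among the 515 genes within 2-fold of its level, a comparison added after its value had been seen, the median log2 change was -0.09, and 7.38% had a change as high as that of Cdkn1a.

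The changes of the other genes were smaller. Trp53 had a log2 change of -0.14 and Cdkn2b of -0.12, both with the lower value at 6 months. Changes of this size or larger were found in 32.1% of all expressed genes for Trp53 and in 38.1% for Cdkn2b. Cdkn2c was at 0.12 and Cdkn2d at 0.09, so the INK4 genes did not share a direction. The log2 changes of Rb1, Mdm2, Cdkn1b and Cdkn1c were 0.07, 0.06, 0.05 and -0.05. In each case more than 60% of all expressed genes changed by at least as much.

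Cdkn2a differed from the others in its change as well as its level. Its FPKM at 6 months was 2.71 times that at 2 months, from 0.326 to 0.883 FPKM, and both values were below the 1 FPKM filter. On the log2(FPKM + 1) scale this was a change of 0.51, short of 1.5-fold, and with a pseudocount of 0.1 FPKM it was 1.21. Of the 2044 genes with a mean between 0.302 and 1.21 FPKM and a value above 0 at both ages, 16 genes, or 0.783%, had a ratio at least as high, Cdkn2a among them, and 28 genes, or 1.37%, were lower at 6 months by the same factor or more. This range was set after the value of Cdkn2a had been seen. The number of fragments behind such low FPKM values is unknown, and a part that single libraries may have played could not be examined.

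**Figure D2:**
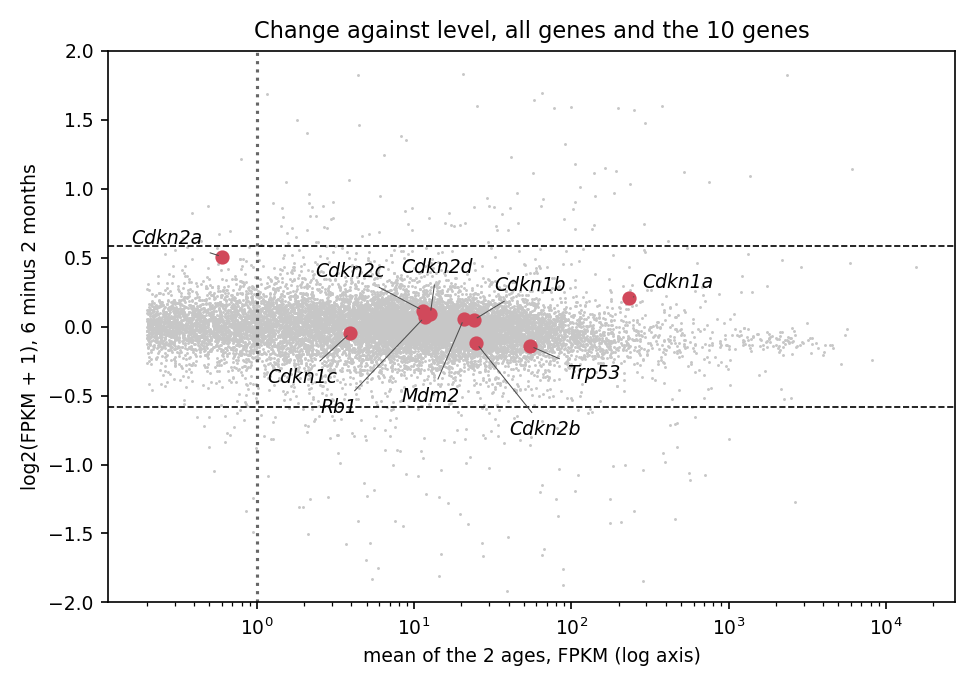
Difference of log2(FPKM + 1), 6 minus 2 months, against the mean FPKM of both ages on a log axis, with grey points for the 14947 genes that averaged 0.2 FPKM or more and red points for the 10 genes; the dashed lines are at 1.5-fold, the dotted line is at 1 FPKM, and 112 genes lie beyond the limits of -2 and 2. All 10 red points lie between the dashed lines, with Cdkn2a at 0.51 and Cdkn1a at 0.21 the highest of them.

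The markers of taste cells were present at both ages. The 5 markers of type II cells, the receptor cells for sweet, umami and bitter taste, ranged from 10.3 to 84.7 FPKM at 2 months and from 14.6 to 79.9 FPKM at 6 months. The RNA also held other cells. The summed level of 6 skeletal muscle genes was 9.06 FPKM at 2 months against 20.5 FPKM at 6, and 5 of the 5 expressed ones were past 1.5-fold on the log2(FPKM + 1) scale. The sum of 4 minor salivary gland genes was 430.7 FPKM at 2 months against 151.0 FPKM at 6, with 3 of 4 genes past 1.5-fold. Of 6 markers of suprabasal and cornified epithelium, 4 were past 1.5-fold with lower values at 6 months, and the sum of all 6 was 8849 FPKM at 2 months against 852.1 FPKM at 6. Of these, Krt13 was listed at 0 at both ages and Krt4 was listed at 7334 FPKM at 2 months and 0 at 6 months, which can be a failed estimate for such abundant keratins. Without Krt4, a step added after seeing the data, 3 were past 1.5-fold and the sum was 1515 FPKM at 2 months against 852.1 FPKM at 6. The 4 basal epithelial genes, whose cells include the dividing progenitors, summed to 3555 FPKM at 2 months against 3595 FPKM at 6. Of these, Krt5 was lower at 6 months, and Krt14, Itga6 and Itgb4 were higher. The 5 leukocyte markers summed to 305.6 and 263.5 FPKM, nearly all of it Lyz2, at 293.3 and 253.7 FPKM. Cd68 and Cd79a were, like Lyz2, lower at 6 months, and Ptprc and Cd3e were higher. The 5 fibroblast markers summed to 42.5 and 27.6 FPKM, nearly all of it Dcn. The collagen genes Col1a1, Col1a2 and Col3a1 were near 0. The 3 endothelial markers summed to 0.383 and 0.399 FPKM. The 5 type III markers summed to 31.3 and 36.3 FPKM and the 3 type I markers to 76.1 and 66.4 FPKM. Of the type I markers, Entpd2 and Kcnj1 were lower at 6 months and Slc1a3 was higher. In pooled RNA, fewer cells of a type and less RNA per cell cannot be told apart, and the part of these cells in the values of the 10 genes was not tested.

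The 10 genes were then set beside 9 gene lists, 186 list entries in all, of which 167 were expressed. Some lists hold genes that work with the 10 genes. Others hold proliferation genes, secreted factors associated with senescence, or imprinted genes. Across these lists, 2 entries (1.198%) were past 1.5-fold, both with a lower value at 6 months, compared with 2.77% of all expressed genes. At so low a share, a count of 0 in a single list of this size does not set that list apart. These counts rest on 1 value per age, with no values of single libraries, and no test was run on them.

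Among p53 target genes, 30 of 32 were expressed and 0 were past 1.5-fold. The median log2 change was -0.04, with 12 higher and 18 lower at 6 months. The highest change was that of Ddit4, an inhibitor of the growth kinase mTOR, from 51.3 to 68.3 FPKM (log2 change 0.41). The lowest was that of the antiproliferative gene Btg2, from 61.1 to 45.2 FPKM (log2 change -0.43). The p53 family members and regulators of p53 had a median of 0.01 over 18 genes, with 0 past 1.5-fold. Hipk2, a kinase that phosphorylates p53, had 5.01 FPKM at 2 months against 6.15 FPKM at 6. The checkpoint kinase gene Chek2 had 7.23 and 6.29 FPKM, the lowest change of that list at -0.17.

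On the side of the kinases, 19 cyclin, cyclin-dependent kinase and related genes had a median log2 change of -0.01, and 0 of them were past 1.5-fold. Ccne1, the cyclin E1 gene that acts at entry into S phase, was at 3.14 FPKM at 2 months against 4.204 FPKM at 6, a log2 change of 0.33. The mitotic cyclin gene Ccnb2 was at 10.5 and 8.79 FPKM, a log2 change of -0.24. Pocket proteins other than Rb1, E2F factors and their partners had a median of 0.09 over 17 genes, with 11 higher and 6 lower, and again 0 past 1.5-fold. In that list, E2f8, a repressor of the E2F family, went from 2.67 to 3.63 FPKM (0.34) and Rbbp4, a histone-binding partner of the pocket proteins, from 37.9 to 35.0 FPKM (-0.11).

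Levels of the inhibitor proteins are also set by ubiquitin ligases, and the 14 genes of this turnover had a median log2 change of 0.01, 7 higher and 7 lower, with 0 past 1.5-fold. Dtl, which directs p21 to its ligase, had 1.83 FPKM at 2 months against 2.32 FPKM at 6 (0.23). Skp1a, an adaptor of the SCF ligases, had 285.63 and 250.01 FPKM (-0.19). Regulators of the Cdkn2a-Cdkn2b locus, which include Polycomb proteins that silence it, had a median of -0.03 over 22 genes, with 0 past 1.5-fold. Id1, an inhibitor of helix-loop-helix factors that represses p16, was the lowest, at 284.7 and 236.4 FPKM (-0.27).

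Of 25 genes for secreted factors associated with senescence, 15 were expressed and 4 were listed at 0 at both ages. Their median log2 change was -0.08, with 5 of the 15 higher and 10 lower at the later age. The chemokine gene Cxcl1 was the only one past 1.5-fold, with 3.89 FPKM at 2 months against 2.12 FPKM at 6, a log2 change of -0.65. Several of these genes are also expressed by leukocytes, whose markers are given above.

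Proliferation genes had the highest median of the 9 lists, 0.14, with 16 of 20 genes higher at 6 months and 0 past 1.5-fold. Mcm5, a subunit of the replicative helicase, had the largest difference, 9.42 FPKM at 2 months against 12.7 FPKM at 6 (log2 change 0.40). Cenpa, the centromeric histone gene, had 13.3 and 11.4 FPKM (-0.20). The list does not hold every gene of cell division. Among those placed in other lists, Cdk1 (-0.13), Ccnb1 (-0.17) and Cdc20 (-0.14) were lower at 6 months. Ccnd1 (0.28) and Cdk2 (0.20), also in another list, were higher.

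As Cdkn1c is imprinted, 16 other imprinted genes were examined. Of these, 12 were expressed. Their median was -0.06 on the log2 scale, 3 being higher and 9 lower in the older mice. Ndn, a growth suppressor expressed in neurons and in mesenchymal cells, was the only one past 1.5-fold, with 6.45 FPKM at 2 months against 3.29 FPKM at 6 (-0.80). The log2 change of Cdkn1c, -0.05, was close to the median of that list.

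**Figure D3:**
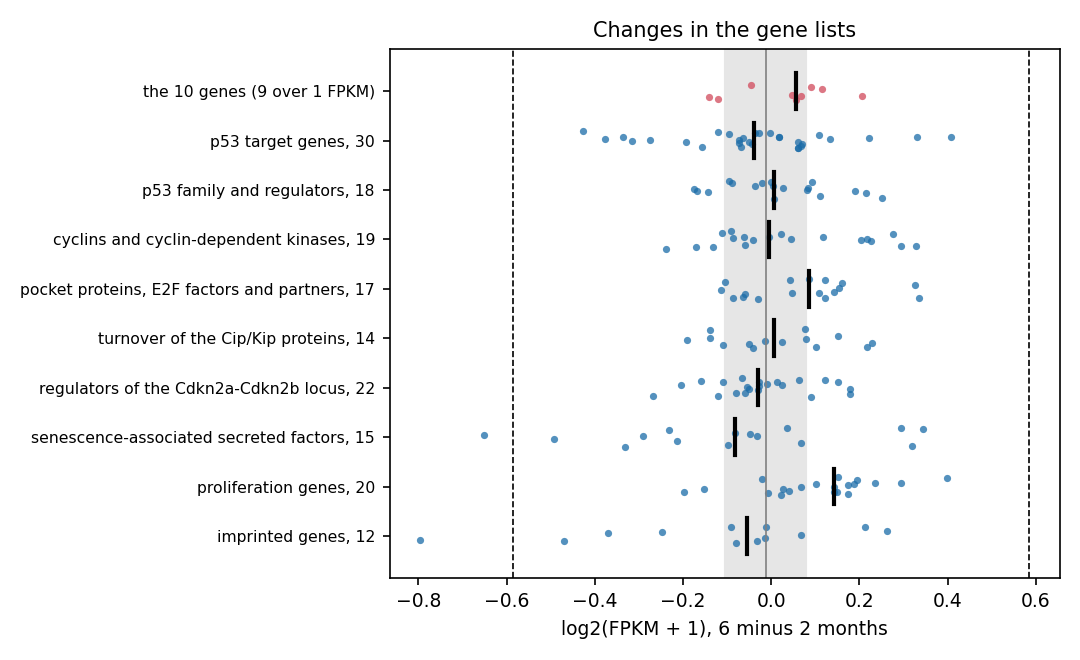
Differences of log2(FPKM + 1), 6 minus 2 months, for the 9 expressed genes of the group (red) and for the expressed genes of 9 lists (blue), with the number of genes after each name. Black bars are medians, the grey band spans the quartiles of all expressed genes (-0.10 to 0.08) and the dashed lines are at 1.5-fold. Only Cxcl1 at -0.65 and Ndn at -0.80 lie beyond a dashed line.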

How the data were processed

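RNA-seq libraries of CV/Fol taste cells were made from 3 pools at each of 2 ages. The authors mapped reads to GRCm38/mm10 with TopHat2 (v2.0.7), obtained gene levels with Cufflinks (v2.1.1) and ran Cuffdiff; the versions are from the submitters' processing notes. The deposited unit is FPKM, 1 value per gene and age, and the library scaling and use of strand are not given in the sources used here. The age of each column follows from its group letter and the sample titles. A column with p-values of the authors' comparison was not used.

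Here, log2(FPKM + 1) at 6 months minus 2 months was computed, and changes past 1.5-fold were counted among genes averaging 1 FPKM or more. With 1 value per age and the authors' p-values set aside, no test was run, and the depth of the libraries is unknown. The members and lists were chosen with earlier results of these data known. Named genes are the 10 members and, from each list, genes past 1.5-fold or else the highest and the lowest. One gene that this rule names is not reported here. Pidd1 was not matched by symbol. In the table, 27 gene names are dates. Loci and promoters were taken from RefSeq (GRCm38.p6) and exons from GENCODE M21. The counting of folds was tested on simulated data without noise, which checks the arithmetic only. Alternatives were a pseudocount of 0.1 FPKM, equal upper quartiles, no filter, a filter at 5 FPKM, and thresholds of 1.25-fold and 2-fold. Scripts ran under Python 3.11.15 with pandas 2.3.3, numpy 2.4.6 and matplotlib 3.10.9. Choices made after values or sequences had been seen include the promoters printed, the p53 motif with 1 mismatch, the 1.2-fold limit and the genes of like level. They also include the sum without Krt4, the tolerance of 0.1 on the log2 scale and the combined pseudocount and filter setting. The genes outside the group that are given at the end were likewise picked with their values known.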

Additional observations from a re-analysis of the deposited data

How the results depend on the processing

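No paired analysis was possible because each age has a single value, and for that reason no library could be left out. Only genes of the group that passed the filter of a setting were counted. The number of these past the threshold was 0 under every alternative of pseudocount, scaling, filter and fold taken one at a time. Cdkn2a, with a mean of 0.605 FPKM, could be counted only where no filter was applied. The filter at 5 FPKM also left out Cdkn1c, with a mean of 3.93 FPKM. The 0 at the lower fold threshold therefore does not cover Cdkn2a, whose log2 change of 0.51 is past that threshold. The number was 1, Cdkn2a, when a pseudocount of 0.1 FPKM and no filter were combined, which was chosen after seeing the data. The median log2 change of the genes lay between 0.06 and 0.08. Of 20 log2 changes of single genes under another pseudocount or scaling, 19 moved by less than 0.1, a tolerance set afterwards for want of a replicate spread, and that of Cdkn2a moved to 1.21. The number of list entries past 1.5-fold was 2. It was 4 with a pseudocount of 0.1 FPKM, 6 with that pseudocount and no filter, 0 with a filter at 5 FPKM, 16 at the lower fold threshold and 0 at 2-fold. The share of all expressed genes past the threshold was computed for the main setting only. The counts under the alternatives can therefore not be read as more or less than that of all expressed genes. Medians near 0 changed sign in 5 cases, 3 of them for the cyclins and kinases, which were at 0.01 with equal upper quartiles. Equal upper quartiles required a factor of 1.02 and moved the median of all expressed genes to 0.01.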

Other observations

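Some genes with related names or positions lie outside the group, and their values were known when they were picked. Cdkn3, a phosphatase of cyclin-dependent kinases, went from 6.04 to 5.40 FPKM between 2 and 6 months (log2 change -0.14). Cdkn2aip, whose product binds the Arf protein, had 8.73 and 8.46 FPKM, and Cdkn2aipnl had 21.2 and 20.9 FPKM. Mtap and Dmrta1, which lie on either side of the Cdkn2a-Cdkn2b locus, had 9.47 and 9.28 FPKM and 0.678 and 0.560 FPKM. Dmrta1 was at a level similar to that of Cdkn2a and had a log2 change of -0.11, against 0.51 for Cdkn2a. A single neighbor does not show how much genes of so low a level vary. Of the 2044 genes of like level to Cdkn2a, 104 (5.09%) changed 2-fold or more in FPKM in either direction.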
